A study of Mus musculus with 51 samples.

Results

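The p53 pathway and nucleolar stress genes described here are these 10, picked by gene name: Trp53, Mdm2, Mdm4, Cdkn1a, Ccng1, Bax, Bbc3, Nupr1, Mybbp1a and Cdip1. They were taken from 37525 genes listed in at least 1 of 5 deposited RNA tables. The members were chosen by measured values in part, because the counts of Cdkn1a, Nupr1, Mybbp1a and Cdip1 do not match the mean that the authors deposited beside them in the 24h table, and those of Cdkn1a do not match in the mESC table. For these genes in those tables the values are therefore a description, with no test.

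RNA was measured in C57BL/6 embryos of the mouse, in a control and a LoNA knockout (KO) group for each of 18h, 20h, 22h and 24h. LoNA is a nucleolar long noncoding RNA. A further pair of groups were C57BL/6 embryonic stem cells labelled 2C-like mESC, as control and after LoNA knockdown (KD). Peak tables from 24h embryos cover H3K4me3 and H3K27me3 in control and LoNA KO, and for acetylated nucleophosmin (AcNPM1) in control, in LoNA KO, and in LoNA KO with a p300 inhibitor. The labels give no allele or knockdown method, no event from which the hours are counted, and no statement on pooling of embryos or on separate cultures, so a p-value measures only the spread between these libraries. No listed gene is named LoNA, so its level is not reported here. The labels give 4 samples in each embryo RNA group and 3 in each mESC group. The 18h, 20h and 22h tables had 3 columns per group, so 1 labelled sample of each of these groups is not analysed here, as is 1 of each mESC group. The 18 embryo columns of 18h to 22h are 1 library each, with 12077497 to 18286944 counts. At 24h the 4 columns of each group formed near-identical pairs (Pearson correlation of log2 CPM 0.995 to 0.998), which were summed to 2 libraries per group with 13066794 to 16922914 counts. The mESC tables had 2 columns per group, with 16906302 to 17674190 counts, and columns of a group correlated at 0.998, so mESC p-values rest on columns about as alike as those summed at 24h. Levels are in CPM (counts scaled to library size).

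On mm10, as listed in the RNA tables, Trp53 lies at chr11:69580359-69591873, Mdm2 at chr10:117688875-117710758, Mdm4 at chr1:132959484-133030561, Cdkn1a at chr17:29090979-29100722 and Ccng1 at chr11:40748552-40755311. Bax lies at chr7:45461697-45466898, Bbc3 at chr7:16308393-16318205, Nupr1 at chr7:126623249-126630861, Mybbp1a at chr11:72441355-72451768 and Cdip1 at chr16:4750348-4790292. Other genes overlap 3 of them: the pseudogene Gm29257 lies within Mdm4, Spns2 overlaps Mybbp1a, and Hmox2 and Gm15835 overlap Cdip1. Whether reads were counted by strand is not given in the sources used here, so counts of these 3 members are uncertain to that extent.

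Embryo libraries carried the 6 oocyte markers examined, whose summed level was 3279 to 9753 CPM, and two-cell markers at 253 to 1435 CPM. At 18h to 22h markers of cumulus and granulosa cells summed to 4.48 to 101 CPM, and those of neurons and chromaffin cells to 44.1 to 152 CPM. The part of these markers' source in the embryo values was not tested. In the mESC libraries pluripotency markers summed to 2451 to 2453 CPM in control and 1195 to 1218 CPM in KD, while the 8 two-cell markers summed to only 6.68 to 7.62 CPM in control and 3.59 to 4.08 CPM in KD, although the cells are labelled 2C-like. In the KD libraries 5 markers of neurons and chromaffin cells summed to 1452 to 1548 CPM, against 26.4 to 27.7 CPM in control, and 5 fibroblast markers to 207 CPM against 482 to 498 CPM. The part of these shifts in any mESC result below was not tested.

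The protein p53, encoded by Trp53, is a transcription factor that arrests the cell cycle or starts apoptosis after DNA damage and other stress. Its ubiquitin ligase Mdm2 and the related Mdm4 hold it low, and Mdm2 is itself a p53 target, which closes a feedback loop. When ribosome production in the nucleolus fails, free ribosomal proteins and other nucleolar proteins bind Mdm2 and release p53, a response known as nucleolar stress. Cdkn1a (the cyclin-dependent kinase inhibitor p21), Ccng1 (a cyclin G), Bax and Bbc3 (Puma), both of which open the mitochondrial death pathway, are textbook p53 targets. Mybbp1a is a nucleolar protein that can leave the nucleolus and bind p53, Cdip1 is a proapoptotic p53 target, and Nupr1 is a small stress-induced chromatin protein of the Atf4 pathway.

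The windows before the members' transcription starts differ in the elements they hold, and 5 of them are shown, from Cdkn1a, Mdm2, Ccng1 and Nupr1. Each is the 250 bases before a RefSeq start (build GRCm38.p6), written 5′ to 3′ on the gene's strand. Capitals mark the 10-letter p53 decamer consensus, searched by that name, or, in Nupr1, the C/EBP-ATF element TGATGNAA, both searched on both strands.
Cdkn1a, first start, chr17:29090729-29090978, plus strand: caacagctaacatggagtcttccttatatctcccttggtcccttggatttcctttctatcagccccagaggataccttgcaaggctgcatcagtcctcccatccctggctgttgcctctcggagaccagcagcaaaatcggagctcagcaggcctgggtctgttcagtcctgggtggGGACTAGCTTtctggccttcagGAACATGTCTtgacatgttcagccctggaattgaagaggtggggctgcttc
Cdkn1a, second start, chr17:29093519-29093768, plus strand: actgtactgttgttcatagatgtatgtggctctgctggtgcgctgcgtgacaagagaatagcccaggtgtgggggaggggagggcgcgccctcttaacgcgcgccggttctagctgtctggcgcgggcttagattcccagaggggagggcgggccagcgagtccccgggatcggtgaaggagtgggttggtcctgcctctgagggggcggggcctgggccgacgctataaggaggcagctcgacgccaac
Mdm2, chr10:117710759-117711008, minus strand: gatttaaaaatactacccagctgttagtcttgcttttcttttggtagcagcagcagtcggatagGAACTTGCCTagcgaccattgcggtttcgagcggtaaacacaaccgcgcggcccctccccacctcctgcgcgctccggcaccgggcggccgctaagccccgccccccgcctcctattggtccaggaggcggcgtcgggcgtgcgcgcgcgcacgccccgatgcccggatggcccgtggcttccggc
Ccng1, chr11:40755287-40755536, minus strand: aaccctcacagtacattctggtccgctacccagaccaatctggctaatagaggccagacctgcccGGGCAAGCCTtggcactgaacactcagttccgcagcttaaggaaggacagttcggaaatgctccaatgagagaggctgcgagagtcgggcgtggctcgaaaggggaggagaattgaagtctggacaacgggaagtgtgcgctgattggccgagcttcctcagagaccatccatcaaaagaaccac
Nupr1, chr7:126625471-126625720, minus strand: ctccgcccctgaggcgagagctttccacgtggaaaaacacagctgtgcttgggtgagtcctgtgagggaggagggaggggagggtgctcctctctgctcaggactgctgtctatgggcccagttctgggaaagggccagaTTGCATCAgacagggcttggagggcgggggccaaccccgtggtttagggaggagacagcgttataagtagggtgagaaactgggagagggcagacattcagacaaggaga
The first Cdkn1a window holds 2 decamers with a gap of 12 bases, from 73 to 42 bases before the start, and the second window holds none. Such a pair, with a gap of at most 13 bases, was found in 21 of 32851 RefSeq windows of this length (0.0639%), and in 1 of the 15 windows of the members. A single decamer is common by comparison, at 7.13% of all windows, and was found in 5 members: Cdkn1a, Mdm2, Ccng1, Bax (AGGCAAGCTT) and Trp53 (GGACTTGCCC). The element in Nupr1 is TTGCATCA, the reverse complement of TGATGNAA, which 3.45% of all windows hold on either strand. The GC box GGGCGG stands in the second Cdkn1a window and in the Nupr1 and Mdm2 windows, as in 32.7% of all windows, and not in the first Cdkn1a window. The search took exact matches only. Directly after the second decamer of the first Cdkn1a window stand the letters tgacatgttc, which depart from the consensus in their first letter and were not marked. A match is a description of the letters only.

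At 24h the H3K4me3 peaks, a mark of active promoters, followed the second of the Cdkn1a starts. A peak of 2234 bases (chr17:29093462-29095696 on mm10) covered the second start and its printed window, with 50.3 RPM (reads scaled to total reads) in control and 38.3 RPM in LoNA KO embryos. No H3K4me3 peak lay within 2000 bases of the first start, the one whose window holds the pair of decamers, and the nearest edge was 2483 bases away. The Nupr1 peak (chr7:126624546-126625930, 13.1 RPM in control and 10.6 RPM in KO) likewise covered the RefSeq start and the window with the C/EBP-ATF element, 4931 to 6315 bases inside the longer gene model of the RNA tables. For Mdm4 a peak (chr1:133024999-133025645, 12.8 and 11.8 RPM) covered the inner of the pair of RefSeq starts.

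**Figure D1:**
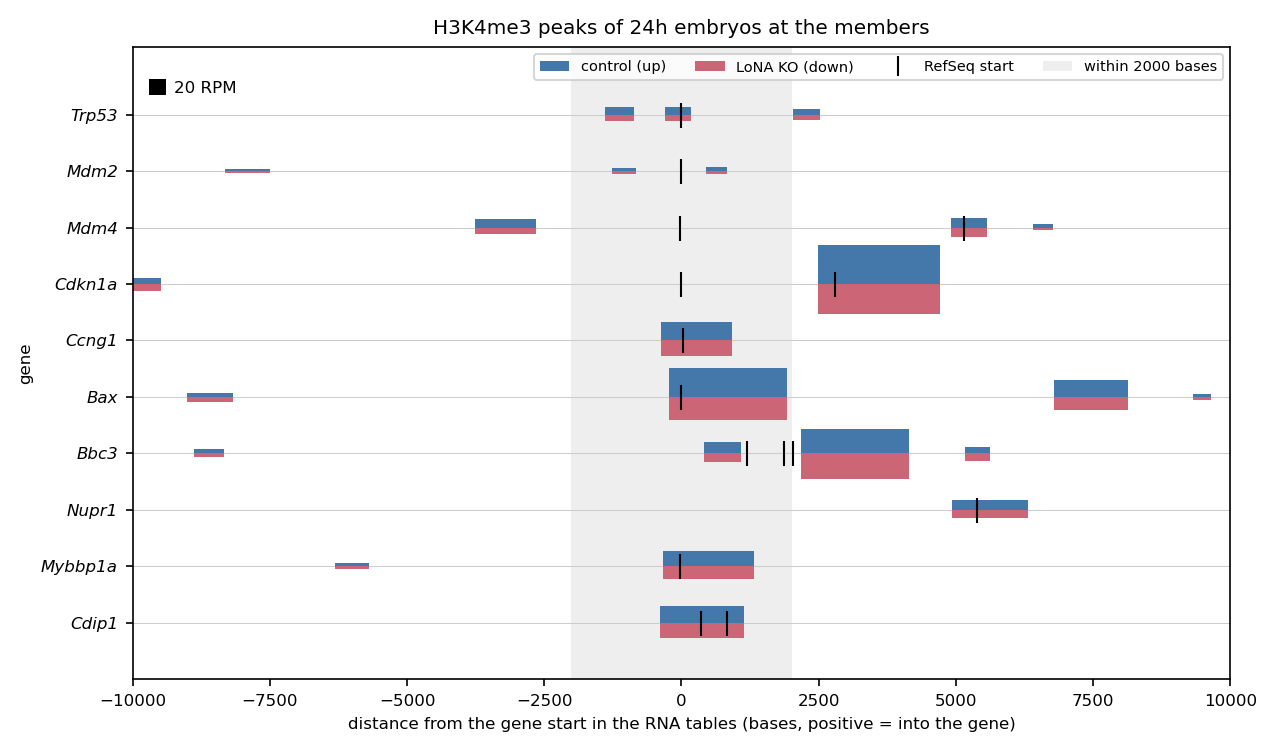
H3K4me3 peaks near each member's start in the RNA tables (x axis, bases, positive into the gene). Bar height above and below each line is the authors' RPM in control and LoNA KO embryos, ticks are RefSeq starts, and the Cdkn1a peak sits at its second start, 2483 to 4717 bases into the gene, with no peak at the first.

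Within 2000 bases of the start in the RNA tables, 7 of 10 members had an H3K4me3 peak (72.5% of 20022 protein-coding genes had one), and with any RefSeq start all 10 did (75.8% of 14997 genes). The 9 promoter peaks of these 7 members had log2 ratios of KO to control from -0.38 to -0.16, with a median of -0.30. Over all 15648 promoter peaks the median was -0.12, and it was -0.12 also over the 13786 of them within the members' control range of 3.96 to 36.7 RPM. All 9 lay below the median of all promoter peaks and 7 lay below their lower quartile of -0.23. With peaks near any RefSeq start added there were 14 peaks of 10 members, of which 12 lay below that median and 10 below that quartile. The other 2 were a second Bbc3 peak, with 31.4 RPM in control and 32.5 RPM in KO (log2 ratio 0.048), and the Mdm4 peak over its inner start (log2 ratio -0.12). The tallest of the 14 in control was the Cdkn1a peak at its second start, with 50.3 RPM in control and 38.3 RPM in KO. Among the 9 the tallest was that of Bax, with 36.7 RPM in control and 29.04 RPM in KO, and Ccng1 had 24.0 and 19.8 RPM. Trp53 had 10.1 and 7.94 RPM at the peak over its start, and Mdm2 had 5.48 and 4.21 RPM at the taller of its pair. Of the 9, those of Mybbp1a (19.1 and 16.8 RPM) and Cdip1 (21.3 and 19.1 RPM) lay closest to the median of all promoter peaks. Each condition is 1 column, so these ratios have no replicate check. The 95% exact binomial interval lies below 0 for each of the 9 ratios and for 12 of the 14, which covers counting error only. These intervals are set against 0, while the median of all promoter peaks is itself -0.12. The upper end lay above that median at the upstream Trp53 peak (-0.113), the shorter Mdm2 peak (-0.0099), Mybbp1a (-0.058) and Cdip1 (-0.035). It lay below that median at the rest of the 9. The share of all promoter peaks with an interval below 0 was not computed. No member peak reached a log2 ratio of 1 in either direction, as did 0.0781% of all H3K4me3 peaks.

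No member had a promoter peak of H3K27me3, the Polycomb mark, or of AcNPM1. Among protein-coding genes 17.8% had such an H3K27me3 peak, and 15.8% and 18.2% had an AcNPM1 peak in the KO over control table and in the inhibitor over KO table. The nearest H3K27me3 peak to a member's start was 23425 bases away, at Trp53, and the farthest 224362 bases, at Cdip1. One AcNPM1 peak lay inside a member: in the inhibitor table, 65816 to 66041 bases into Mdm4, with 1.28 RPM in LoNA KO and 1.08 RPM with the p300 inhibitor.

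The embryo comparisons ask whether loss of LoNA moved these genes between 18h and 22h, and no member passed the test at any of these times. At 18h 0 of 9 tested members passed (edgeR quasi-likelihood test, Benjamini-Hochberg adjusted p under 0.05), 1 had an unadjusted p under 0.05, and DESeq2 called 0 (0.48% of all genes). Over all genes edgeR called 0.00649% at 18h, 0.0138% at 20h and 0.00656% at 22h, so a member count of 0 stands at the background. At 20h 0 of 8 and at 22h 0 of 9 passed, with 1 and 0 at an unadjusted p under 0.05 and 0 by DESeq2, which called 0.204% and 0.0139% of all genes. With the 3 times fitted together 0 of 9 members passed, with 1 at an unadjusted p under 0.05 and 0 by DESeq2, against 0.00589% of all genes by edgeR and 0.037% by DESeq2. Levels below are scaled together over the 18 libraries, and log2 changes come from the fit of each time's own table.

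Trp53 measured 76.1, 86.9 and 52.7 CPM in the control libraries and 61.2, 63.5 and 47.7 CPM in the KO libraries at 18h. Its groups overlapped, with a log2 change of -0.29 ± 0.31 (SE, edgeR adjusted p 0.9999). At 22h it measured 88.0, 141 and 95.5 CPM in control and 109.7, 96.4 and 144 CPM in KO, again overlapping.

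Mdm2, the ligase that degrades p53, had 149, 71.6 and 94.4 CPM in control and 78.8, 70.1 and 70.7 CPM in KO at 18h. The control library at 149 CPM stood above the other 5, and the groups overlapped (log2 change -0.49 ± 0.33, adjusted p 0.9999). The 20h means of control and KO were 54.1 ± 11.9 and 38.0 ± 6.07 CPM, and those of 22h were 88.5 ± 18.8 and 108 ± 15.8 CPM (SD, n = 3), so the sign of the KO difference was negative at 18h and 20h and positive at 22h, within the spread each time. Mdm4, the relative of Mdm2 that blocks p53 activity, had nearly equal means at 18h and 22h, with log2 changes of 0.03 ± 0.33 and -0.03 ± 0.22 (adjusted p 0.9999 and 0.99996 by edgeR).

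Cdkn1a, the p21 gene, was uneven among libraries of one group at 18h. It measured 64.4, 44.4 and 7.72 CPM in KO and 19.7, 21.4 and 28.3 CPM in control, so 2 KO libraries lay above every control and 1 below. The log2 change was 0.78 ± 0.61 (adjusted p 0.9999). At 20h KO had 39.6, 14.99 and 5.14 CPM and control 35.7, 10.7 and 13.97 CPM, and at 22h KO had 11.1, 8.09 and 4.67 CPM and control 3.25, 8.03 and 1.78 CPM.

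Ccng1 was the member whose groups did not overlap in an embryo KO comparison with 3 libraries a group. At 20h it measured 9.25, 5.66 and 6.32 CPM in control and 1.25, 2.62 and 0.214 CPM in KO, from 129, 81 and 76 counts against 19, 38 and 3. Groups failed to overlap for 4.8% of all genes in the lower and 5.12% in the higher direction at 20h. No tested member had groups apart at 18h (5.56% of all genes higher and 7.25% lower) or at 22h (4.66% and 4.56%). The log2 change was -2.42 ± 1.09 with an unadjusted p of 0.0474 and an edgeR adjusted p of 0.998, so it did not pass. At 22h the order turned, with 5.26, 6.00 and 7.44 CPM in KO and 4.12, 6.86 and 1.11 CPM in control.

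Bax, the pore-forming death effector, had 11.0, 17.1 and 4.76 CPM in KO and 2.89, 5.40 and 2.26 CPM in control at 18h. Here 2 KO libraries lay above all controls and the lowest lay inside their range. The log2 change was 1.67 ± 0.69 (unadjusted p 0.0355, edgeR adjusted p 0.963). Over the 3 times together it was 0.87 ± 0.34 (unadjusted p 0.0172, adjusted p 0.976), with a mean of 7.41 ± 5.34 CPM for control libraries and 13.04 ± 6.85 CPM for KO libraries (SD, n = 9). Bbc3 is not listed in the 18h and 20h tables, and in the 22h table it has 5 counts, all in 1 KO library.

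Nupr1 measured 18.0, 3.09 and 4.19 CPM in control and 10.8, 5.97 and 5.83 CPM in KO at 18h, where 1 control library was the highest of all. Mybbp1a was near the limit of detection, with 2.94, 0 and 0 CPM in KO and 1.85, 1.70 and 2.32 CPM in control at 18h, and was too low to be tested at 20h. At 22h it had 8.88, 2.15 and 2.77 CPM in KO and 2.31, 2.34 and 1.001 CPM in control, so 1 KO library stood above the rest (log2 change 1.28 ± 0.74, adjusted p 0.99996). Cdip1 had 33.9, 26.3 and 29.4 CPM in KO and 33.5, 74.2 and 44.9 CPM in control at 18h, overlapping by the narrow margin of 1 pair of libraries (log2 change -0.73 ± 0.37, adjusted p 0.9697).

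**Figure D2:**
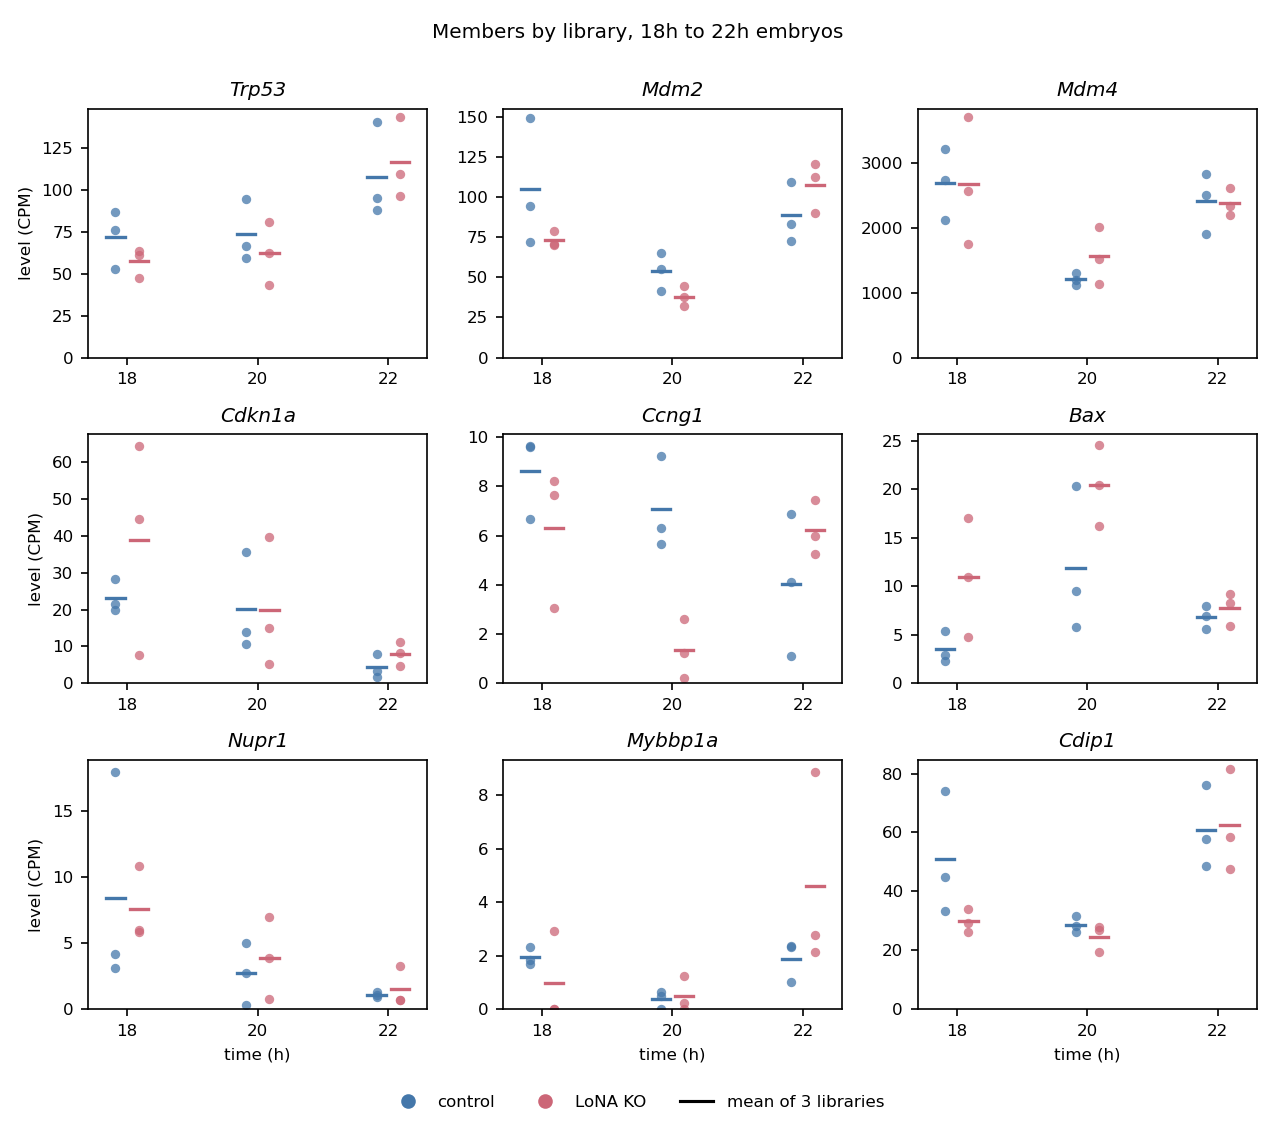
Level in CPM (y axis, linear, from 0) of 9 members in each of 18 embryo libraries by time in hours (x axis). Points are libraries, short lines are means of 3 libraries, and Ccng1 at 20h is the panel in which the KO libraries, at 0.214 to 2.62 CPM, lie below the control libraries, at 5.66 to 9.25 CPM.

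The 18h, 20h and 22h libraries also allow each genotype to be followed over time. From 18h to 22h Cdkn1a went from 23.2 ± 4.53 to 4.35 ± 3.27 CPM in control and from 38.8 ± 28.7 to 7.95 ± 3.21 CPM among KO embryos (SD, n = 3). The log2 change was -2.42 ± 0.76 in control (edgeR adjusted p 0.121) and -2.30 ± 0.75 in KO (adjusted p 0.0900). Every 22h control library lay below every 18h control library. In KO the 18h library at 7.72 CPM lay inside the 22h range, and without that library the edgeR adjusted p in KO was 0.0275. The share of all genes whose libraries lie apart between 18h and 22h was not computed. Nupr1 went from 8.42 ± 8.30 to 1.07 ± 0.201 CPM in control, with all 3 libraries at 22h below the lowest at 18h, and from 7.55 ± 2.86 to 1.54 ± 1.47 CPM in KO. Its log2 changes were -2.97 ± 1.05 (adjusted p 0.185) and -2.30 ± 1.02 (adjusted p 0.225). Trp53 moved the other way, from 71.9 ± 17.5 to 108 ± 28.6 CPM in control and from 57.5 ± 8.57 to 117 ± 24.4 CPM in KO, where the log2 change was 1.01 ± 0.31 (adjusted p 0.0677).

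No member passed between 18h and 22h in either genotype by edgeR, with 2 of 9 at an unadjusted p under 0.05 in control and 4 of 9 in KO, and DESeq2 called 2 and 3 (5.93% and 11% of all genes). Over all genes edgeR called 1.58% in control and 4.13% in KO, the latter as 475 higher and 309 lower, or 360 higher and 438 lower with RLE scaling. The difference between the genotypes in this change passed for 0 of 9 members and for 0 of all genes by edgeR, with 0 members at an unadjusted p under 0.05 and 0 by DESeq2 (0.218% of all genes). Libraries of each time stand in a table of their own, so time and any difference in the handling of those libraries cannot be told apart.

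Mdm2, Mdm4 and Cdip1 were lowest at 20h in both genotypes. In control Mdm4 measured 3218, 2120.0 and 2731 CPM at 18h, 1195, 1309 and 1122 CPM at 20h and 2832, 1903 and 2510.2 CPM at 22h. The 20h libraries lay below all others of that genotype, and how often this holds over all genes was not computed. The Mdm4 log2 changes were -1.15 ± 0.30 from 18h to 20h (edgeR adjusted p 0.0655) and 0.98 ± 0.30 from 20h to 22h (adjusted p 0.0753). In KO Mdm4 had means of 2679 ± 982, 1558 ± 443 and 2380.2 ± 209.7 CPM (SD, n = 3).

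The rise from 20h to 22h in LoNA KO embryos passed for 2 of 9 tested members, Mdm2 and Cdip1, where 8.67% of all genes passed and 4.51% rose (856 higher and 791 lower, or 717 and 878 with RLE scaling). Mdm2 went from 44.3, 32.2 and 37.4 CPM to 112, 90.0 and 121 CPM. Its libraries did not overlap, and the share of all genes that lie apart in this step was not computed. The log2 change of Mdm2 was 1.48 ± 0.30 (edgeR adjusted p 0.00429). The adjusted p stayed between 0.00358 and 0.0309 as each of the 18 libraries was left out in turn. Only the KO libraries of 20h and 22h enter the means compared, and the others act through the shared dispersion and scaling. In control Mdm2 went from 54.1 ± 11.9 to 88.5 ± 18.8 CPM (SD, n = 3), a log2 change of 0.69 ± 0.29 (adjusted p 0.220). Cdip1, a proapoptotic membrane protein gene, went from 19.3, 26.8 and 27.7 CPM to 81.5, 47.5 and 58.6 CPM in KO (log2 change 1.33 ± 0.33, adjusted p 0.0157) and from 28.6 ± 2.75 to 60.8 ± 13.996 CPM in control (1.07 ± 0.33, adjusted p 0.0807). The Cdip1 call was lost without KO library 1 at 20h (adjusted p 0.0730), KO library 2 at 20h (0.0572) or KO library 1 at 22h (0.0989). Whether the 20h to 22h change differs between the genotypes was not tested. DESeq2 called 4 members here and 17.1% of all genes. In the other steps between neighbouring times edgeR called 0 of 9 members. From 18h to 20h, 4 members in control and 3 in KO had an unadjusted p under 0.05, and DESeq2 called 3 in each, where edgeR called 0.753% and 1.26% of all genes and DESeq2 9.09% and 9.39%. From 20h to 22h in control, 4 had an unadjusted p under 0.05 and DESeq2 called 3, where edgeR called 2.94% of all genes and DESeq2 9.84%. These contrasts of neighbouring times were added after the first results were seen, and they share the 20h libraries with each other.

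Bax had its highest means at 20h, and Ccng1 its lowest mean at 20h in KO. Bax in KO was at 10.9 ± 6.16, 20.4 ± 4.19 and 7.80 ± 1.67 CPM at 18h, 20h and 22h, and in control at 3.51 ± 1.66, 11.9 ± 7.52 and 6.82 ± 1.19 CPM (SD, n = 3). The 20h mean was the highest in both genotypes, while the lowest was at 22h in KO and at 18h in control. None of these steps passed by edgeR (adjusted p 0.140 to 0.488). DESeq2 called Bax from 18h to 20h in control (adjusted p 0.0235) and from 20h to 22h in KO (0.0385). In these steps DESeq2 called 9.09% and 17.1% of all genes. Ccng1 in KO was at 6.32 ± 2.84, 1.36 ± 1.21 and 6.23 ± 1.11 CPM (SD, n = 3), with log2 changes of -2.20 ± 0.81 and 2.17 ± 0.81 (edgeR adjusted p 0.162 and 0.106). DESeq2 called both of these steps (adjusted p 0.0320 and 0.0318), as it did 9.39% and 17.1% of all genes. In control Ccng1 went down at both steps, at 8.64 ± 1.71, 7.08 ± 1.91 and 4.03 ± 2.87 CPM (SD, n = 3), with log2 changes of -0.28 and -0.83 (adjusted p 0.923 and 0.639).

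Across the 18 embryo libraries, which share the differences in depth and time described above, Mdm2 and Cdip1 had a Spearman rho of 0.77, Mybbp1a and Cdip1 of 0.81, and Trp53 and Nupr1 of -0.74. Of 9593 genes with a mean of at least 5 CPM, those most like Trp53 over these libraries were Zfp296 (rho 0.94), Sf3b4 (0.93), a splicing factor subunit, and Zfp791 (0.92). Those most like Mdm2 were Kif20a, a mitotic kinesin (0.90), Wsb1 (0.87) and Mob1b (0.87), and those most like Ccng1 were Supt5 (0.84), a transcription elongation factor, Lair1 (0.83) and Nf2 (0.79).

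Genes of related pathways did not pass in any embryo KO comparison. At 18h the 27 tested p53 target genes had a median log2 change of 0.18 with 0 called, at 20h the 24 tested had 0.05 and at 22h the 27 tested had 0.15, while the medians of all genes were -0.02, -0.03 and -0.00. Rrm2b, a ribonucleotide reductase subunit induced by p53, had 287 ± 105 CPM over the 9 control libraries and 437 ± 257 CPM over the 9 KO libraries (SD, n = 9, log2 change 0.51, adjusted p 0.976 by edgeR). Npm1, which encodes nucleophosmin, had 1486 ± 457 and 1892 ± 705 CPM (log2 change 0.29, adjusted p 0.976).

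From 20h to 22h in KO embryos, where 8.67% of all genes passed (856 higher and 791 lower), 3 of 17 genes of the nucleolar link to Mdm2 fell and 0 rose, namely Rps27l (log2 change -2.52, adjusted p 0.00151), Npm1 (-1.21, adjusted p 0.00507) and Rps7 (-1.37, adjusted p 0.0405), all by edgeR. The median of the list was -0.30 and that of all genes 0.04. In control the same step had a list median of 0.31 with 0 higher and 1 lower of 17, and a median of all genes of -0.03, and the difference between the genotypes was not tested. Of 18 regulators of p53, 3 rose and 0 fell: Kat5, an acetyltransferase, from 2.54 ± 0.461 to 10.98 ± 0.789 CPM, Atr, a DNA damage kinase, from 2.41 ± 0.422 to 9.63 ± 2.46 CPM, and Aurka, a mitotic kinase, from 129.7 ± 17.9 to 448 ± 92.0 CPM (SD, n = 3). Among 31 p53 targets 1 rose, Trp53inp1, and 0 fell. Of the 13 genes of the integrated stress response, which is the pathway of Nupr1, 1 fell, Ddit3, from 92.3 ± 17.5 to 30.4 ± 8.15 CPM. Of 20 apoptosis regulators 0 rose and 2 fell, Cycs, which encodes cytochrome c (log2 change -1.49), and Birc5, which encodes survivin (-1.32). In control, where 2.94% of all genes passed at this step, 1 of the 31 p53 targets rose and 0 fell. There 0 of the 20 apoptosis regulators rose and 1 fell, and 0 rose and 0 fell among the regulators of p53 and the stress response genes. For these lists too the difference between the genotypes was not tested. Npm1, Rps7 and other ribosomal protein genes have processed pseudogenes, and how the authors assigned reads shared between such copies is not given in the sources used here.

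At 24h the summed oocyte markers were at 3279 to 4144 CPM in control and 6318 to 8276 CPM in KO libraries, and their part in the 24h values was not tested. The counts deposited for Cdkn1a, Nupr1 and Mybbp1a are higher in every KO column than in any control column, where they are near 0. Those of Cdip1 are high in 2 KO columns and within the control range in the other 2. The counts of all 4 genes disagree with the mean deposited for the same rows. Cdkn1a has 472, 60, 50 and 507 counts in the 4 KO columns and 2, 0, 0 and 0 in the control columns. The authors' deposited table gives it a mean of 128.0, where these counts give 114.5. Nupr1 has 182, 199, 192 and 161 counts in KO and 0, 2, 0 and 0 in control, with a mean of 82.2 from the counts and 83.9 in the authors' deposited table. Mybbp1a has 116, 194, 138 and 262 counts in KO and 1, 0, 0 and 0 in control, and its mean is 77.7 from the counts and 0.130 in the authors' deposited table. Cdip1 has 124, 5, 3 and 129 counts in KO and 0, 6, 1 and 5 in control, with a mean of 28.5 from the counts and 32.1 in the authors' deposited table. By single columns Cdip1 overlaps between the groups. In the summed libraries all 4 genes lie apart with KO higher, as do 15.5% of all genes, and for Cdip1 that rests on sums of unequal columns. The 4 genes were picked for a mismatch in these same counts, so setting them beside that share is a description and no evidence of a change. The tolerance for agreement was 0.02 on the log2 scale. Nupr1, the nearest outside it, differs by -0.03, and every other gene of the 24h table is within 3.5e-09. The authors' deposited log2 folds are 7.26 for Cdkn1a, 6.14 for Nupr1, 3.14 for Mybbp1a (beside its mean of only 0.130) and 4.31 for Cdip1. The counts give 8.78, 8.44, 9.22 and 4.32. The 2 sources share a sign for each gene, but for Mybbp1a a deposited mean of 0.130 is near 0, so its fold says little on direction. Neither the level of these 4 genes at 24h nor their difference between the groups is settled by the deposited values.

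Cdkn1a and Cdip1 also break the pairing of the 24h columns. Within the 2 KO pairs, Cdkn1a differs by 2.98 and 2.59 and Cdip1 by 3.49 and 3.15 on the log2(CPM + 1) scale, whereas Nupr1 and Mybbp1a differ by 0.0824 to 0.625. Of 10447 genes with at least 50 counts at 24h, 15 (0.144%) have a KO pair differing by more than 2. The other tested members differ by at most 0.195 within a KO pair and 0.580 within a control pair.

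**Figure D3:**
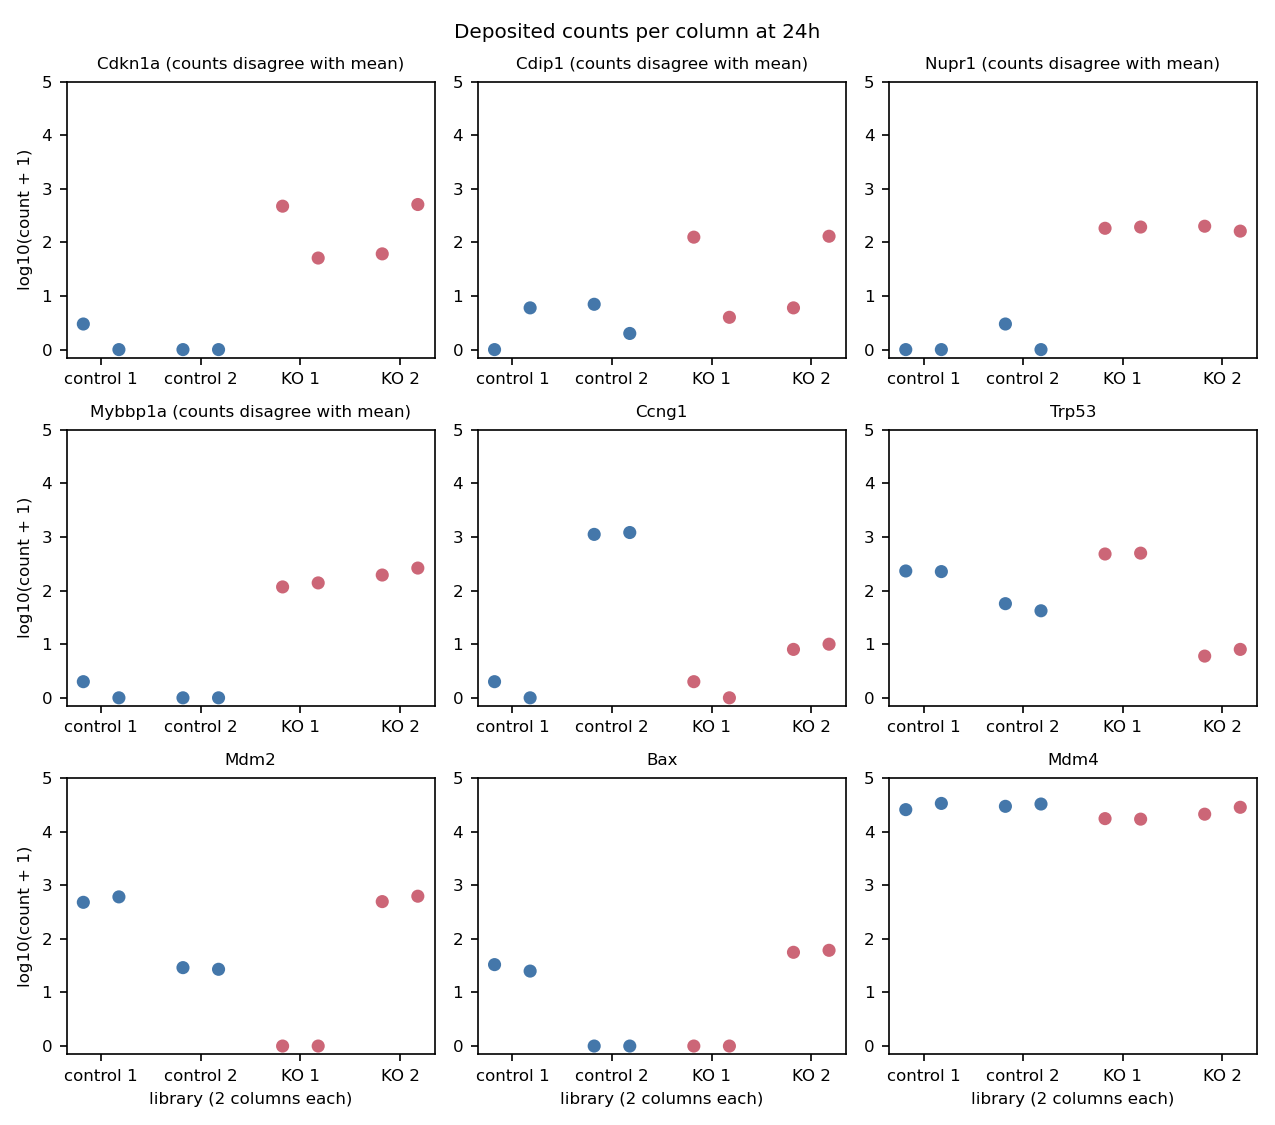
Deposited counts per column at 24h as log10(count + 1) (y axis) for 9 members, with the 2 columns of each summed library side by side (x axis), control blue and LoNA KO red. Cdkn1a and Cdip1 split within both KO libraries, with 472 against 50 and 60 against 507 counts for Cdkn1a, while the columns of a library nearly coincide for Mdm2, Trp53 and Mdm4.

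Of the 5 members tested at 24h, Trp53, Mdm2, Bax and Ccng1 were uneven between libraries of one group, and Mdm4 was high in all 4 libraries. Ccng1 measured 0.0636 and 154 CPM in the control libraries and 0.0676 and 0.955 CPM in the KO libraries. Mdm2 measured 68.8 and 3.58 CPM in control and 0 and 66.5 CPM in KO, and Trp53 29.0 and 6.43 CPM in control and 66.2 and 0.716 CPM in KO. Bax measured 3.56 and 0 CPM in control and 0 and 6.86 CPM in KO. For Mdm2, Trp53 and Bax each genotype had 1 higher and 1 lower library, while for Ccng1 the 1 high library was a control and both KO libraries were near 0. Mdm4 alone of the 5 tested members did not overlap, with 3761 and 4120.2 CPM in control and 2332 and 2951 CPM in KO, where 17.6% of all genes did not overlap in that direction. Its log2 change was -0.53 ± 0.41 (edgeR adjusted p 0.9999). None of the 5 passed by edgeR or DESeq2, 0 had an unadjusted p under 0.05, and edgeR called 0 of 7425 genes (0%) and DESeq2 16.2%. With the 8 columns taken as separate libraries Mdm4 passed (adjusted p 0.0422), as did 12.1% of all genes. Fewer cells of a type and less RNA per cell cannot be told apart in these bulk samples.

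In 2C-like mESC, 8 of the 9 members that could be tested passed after LoNA KD, 2 higher and 6 lower, where 74.2% of all genes passed (38.9% higher and 35.3% lower). The columns of each mESC group correlated at 0.998, about as closely as the embryo columns that were summed as near-identical pairs. Summed in the same way, each mESC group would be a single library, with no test. The mESC calls, SE and p-values here and below therefore measure only the spread between such columns. Trp53, Mdm2, Mdm4, Mybbp1a and the p53 targets Ccng1 and Bbc3 were lower, while Nupr1 and the p53 target Cdip1 were higher. The target Bax did not pass, and the target Cdkn1a, which has no test, had higher counts in KD. Mdm4 fell furthest, from 647 and 626 CPM in control to 290.2 and 268 CPM in KD, a log2 change of -1.22 ± 0.04 (edgeR adjusted p 1.26e-16). Trp53 went from 326 and 334 CPM to 263 and 292 CPM (log2 change -0.28 ± 0.04, adjusted p 8.86e-06). Mdm2 went from 235 and 223 CPM to 187 CPM in both KD columns (-0.32 ± 0.04, adjusted p 5.58e-07). All of these groups lay apart, as did 41% of all genes in that direction and 45.6% in the other. DESeq2 called 7 of 9 members and 47.7% of all genes.

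Among the targets, Ccng1 fell from 364 and 360.1 CPM to 203 and 175 CPM (log2 change -0.96 ± 0.05, edgeR adjusted p 1.50e-13). Bbc3, the Puma gene that the embryo tables barely list, fell from 95.3 and 108 CPM to 64.1 and 64.2 CPM (-0.69 ± 0.06, adjusted p 5.43e-10). Bax measured 56.0 and 56.1 CPM in control and 51.8 and 56.3 CPM in KD and did not pass (adjusted p 0.241). Nupr1 rose from 16.2 and 17.9 CPM to 39.5 and 47.9 CPM (log2 change 1.33 ± 0.09, adjusted p 3.64e-11). Mybbp1a fell from 649 and 646 CPM to 579 and 590.5 CPM (-0.18 ± 0.04, adjusted p 0.000193). Cdip1 rose from 48.6 and 46.1 CPM to 55.7 and 53.3 CPM (0.17 ± 0.06, adjusted p 0.019997), a call lost with DESeq2 (adjusted p 0.120), without KD replicate 1 (0.0913) and without control replicate 2 (0.144).

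Cdkn1a has 2060 and 1962 counts in KD and 679 and 578 in control, or 121 and 118 CPM against 38.4 and 32.9 CPM. The authors' deposited table gives a mean of 2206 where the counts give 1325, and a log2 fold of 1.95 where the counts give 1.74. Both put KD above control, and the size of the difference is not settled. In this table the gene just outside the tolerance, Zmat4, differs by 0.02 and the largest difference of the genes inside it is 0.0128.

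**Figure D4:**
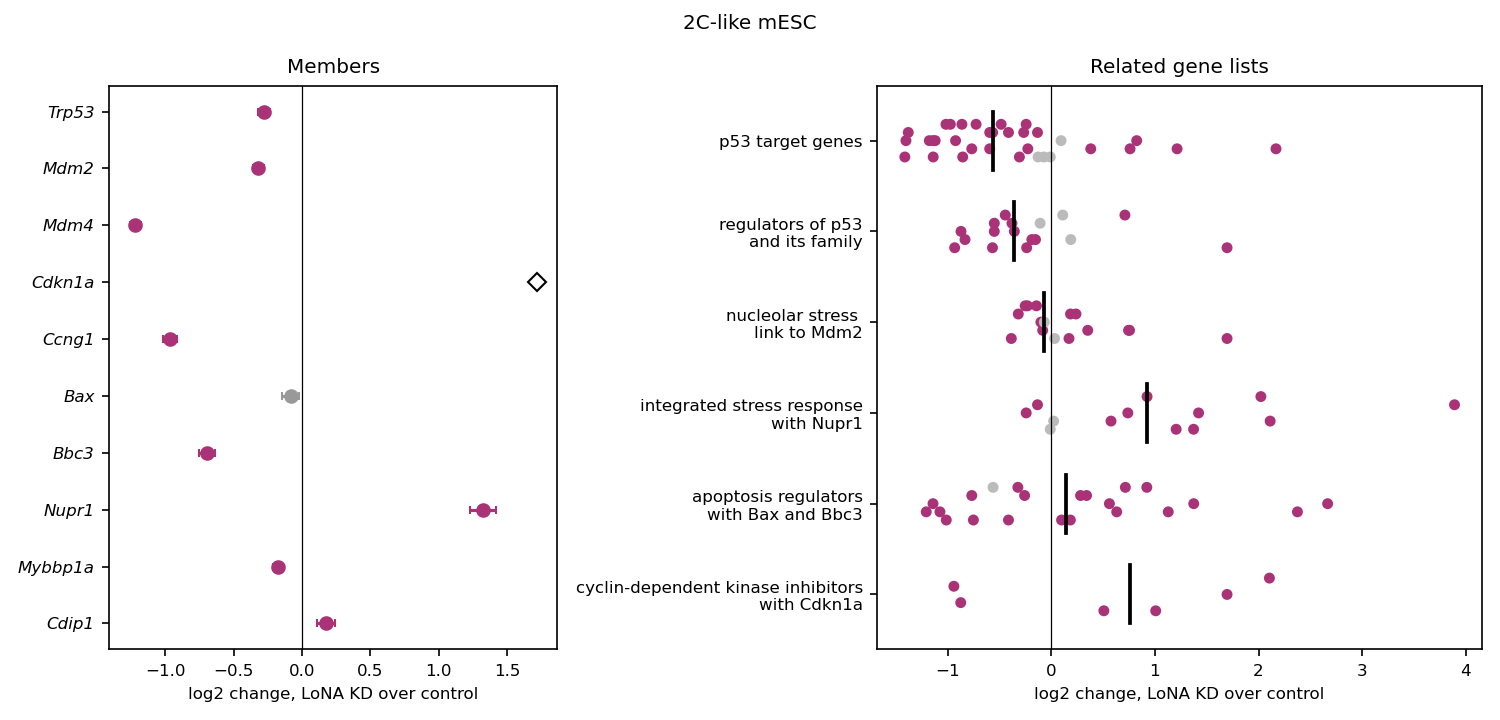
Log2 change of LoNA KD over control in 2C-like mESC (x axes) for the members, with SE bars, and for the genes of 6 related lists, with the list median as a black bar. Filled purple points passed edgeR, grey points did not, and the open diamond is Cdkn1a at 1.72, which has no test because its counts disagree with the deposited mean.

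Most of the other p53 target genes were lower in KD mESC, as Ccng1 and Bbc3 were, unlike Cdip1 and the untested Cdkn1a, which were higher, and Bax, which did not pass. The list counts that follow stand against 38.9% of all genes higher and 35.3% lower. Of 33 tested, 24 fell and 5 rose, with a median log2 change of -0.57, where the median of all genes was 0.01. Among those that fell were Trp53inp1, a p53-induced regulator of autophagy and apoptosis (437 ± 4.20 to 171 ± 15.2 CPM), Eda2r, a death receptor relative (164 ± 5.20 to 63.3 ± 3.24 CPM), and Ptprv (12.96 ± 0.877 to 4.96 ± 0.475 CPM). Among those that rose were Gdf15, a stress-induced cytokine (13.2 ± 0.715 to 60.8 ± 2.73 CPM), Ccnd1, cyclin D (70.5 ± 0.594 to 167 ± 0.0641 CPM), and Sertad1 (8.03 ± 0.172 to 14.5 ± 0.463 CPM; SD, n = 2 throughout). Of 17 tested regulators of p53, 12 fell and 2 rose, with a median of -0.36. Atm and Atr, the kinases of the DNA damage response, fell from 94.2 ± 0.831 to 50.4 ± 1.46 CPM and from 104 ± 8.54 to 59.5 ± 4.01 CPM. Cdkn2a, whose alternative product Arf binds Mdm2 in the nucleolus, rose from 19.2 ± 0.413 to 63.6 ± 2.48 CPM.

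Genes of the integrated stress response, the pathway that drives Nupr1 through Atf4, lay mostly above control. Of 13 tested, 9 rose and 2 fell, with a median log2 change of 0.92. Chac1, a glutathione-degrading enzyme, rose from 6.72 ± 0.705 to 102 ± 0.626 CPM, Atf4 from 167 ± 2.39 to 737 ± 26.96 CPM and Trib3, a pseudokinase, from 28.8 ± 1.43 to 119.6 ± 3.88 CPM (SD, n = 2). The list of the nucleolar link to Mdm2 was split evenly, with 7 higher and 7 lower of 17 and a median of -0.07, close to the even split of all genes. There Rpl11, one of the ribosomal proteins that bind Mdm2, rose from 547 ± 26.4 to 937 ± 41.0 CPM, and Rrn3, an initiation factor of RNA polymerase I, fell from 245 ± 2.11 to 191 ± 7.69 CPM.

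Relatives of Bax and Bbc3 went both ways, as all genes did (38.9% higher and 35.3% lower), with 12 higher and 9 lower of 22 tested and a median of 0.14. The death-promoting Pmaip1 (Noxa, also a p53 target), Bcl2l11 (Bim) and Hrk fell, with log2 changes of -1.14, -1.07 and -1.21, while the death-promoting Bok and Bad rose by 2.38 and 1.37. Bcl2, which blocks Bax, rose from 1.36 ± 0.085 to 8.86 ± 0.0443 CPM. Of the 6 other cyclin-dependent kinase inhibitors 4 rose, among them Cdkn2c (2.89 ± 0.471 to 12.7 ± 0.236 CPM) and Cdkn2d (19.3 ± 0.012 to 39.7 ± 2.55 CPM), and 2 fell, Cdkn2b (9.73 ± 2.16 to 5.17 ± 0.0932 CPM) and Cdkn1c (19.9 ± 2.48 to 11.1 ± 0.386 CPM; SD, n = 2). The lists share some genes, Cdkn2a standing in 3 of them and Pmaip1, Apaf1, Ddit4 and Sesn2 in 2 each. Ddit4 and Sesn2 stand in both the p53 target and the stress response list, so the counts of those lists are not independent.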

How the data were processed

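Members and gene lists were chosen with earlier results of these data known. The deposited RNA tables hold raw counts per gene with the authors' mean signal (baseMean, counts over size factors) and the authors' fold change as a ratio or, at 24h, a log2 value, per the file headers. The deposited peak tables give reads per peak as counts, total reads (another quantity, constant per column), RPM and the authors' log2 ratio, with 1 column per condition. Columns of the H3K4me3 and H3K27me3 tables carry initials, read as control and KO from the table titles. The submitters' processing notes name Bowtie2 2.1.0 and 2.2.3, HISAT2 2.1.0, HTSeq 0.6.0, bcl2fastq 2.2, MACS2 2.1.1 and mm10, with no role given for each here. GRCm38.p6 and mm10 share coordinates.

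Columns were tied to groups, not to labelled replicates. Counts were fitted with edgeR 4.0.16 (R 4.3.3; TMM, filterByExpr, quasi-likelihood test) per table, and over the 18 libraries of 18h to 22h for changes with time, Benjamini-Hochberg adjusted over all tested genes at 0.05. The SE is the absolute log2 change over the root of F. DESeq2 1.42.0 was an alternative. Scripts were tested on simulated data. All 10 members are described. From each list up to 3 genes per direction past the threshold with the largest change were eligible to be named, or else up to 2 with the highest mean. Alternatives were other normalization, no filter, and each library left out. The contrasts of neighbouring times, the RefSeq starts and a replicate block by column number were added after seeing the data.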

Additional observations from a re-analysis of the deposited data

How the results depend on the processing

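Columns could not be tied to labelled replicates, but their names share numbers between the groups (at 24h, that of the first column of each summed library was used). Deviations of same-numbered libraries from their group means correlated at -0.13 to 0.11, and at 18h to 22h 3 of 9 KO libraries correlated best with the control library of their own number, so the numbers were not taken as pairs. A fit with these numbers as a replicate block, added after seeing the results, called 0 members at each of 18h, 20h, 22h and 24h, 0 over 18h to 22h together, 0 for the difference of the 18h to 22h change, and 8 in mESC, as without it. Under the block the sign turned for Mdm4 (-0.043) and Nupr1 (0.23) at 18h, Trp53 at 24h (-0.92), Mybbp1a over the times together (-0.57) and Nupr1 in the difference of the change (-0.17). Peak annotation by the authors was not used because the tables hold none. Of the member changes recomputed under the alternatives, 1841 kept their direction and side of the threshold, 63 changed sign, 19 newly passed and 6 no longer passed.

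With the 8 columns at 24h taken as separate libraries, 1 member passed (Mdm4, log2 change -0.55, adjusted p 0.0422). DESeq2 called 2 members for 22h against 18h in control, 3 in KO, 3 for 20h against 18h in either genotype, 3 for 22h against 20h in control and 4 in KO. With each library left out, the count ran from 0 to 1 for 22h against 18h in KO and for 20h against 18h in control, in both cases 1 without KO library 3 at 18h, and from 1 to 2 for 22h against 20h in KO. The cause was not tested.

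Lowest and highest log2 changes with 1 library left out, where the sign turned, were as follows. At 18h these were Mdm4 -0.31 to 0.26 and Nupr1 -0.52 to 1.05. At 20h they were Cdkn1a -1.01 to 0.65 and Nupr1 -0.21 to 1.32. At 22h they were Cdip1 -0.20 to 0.22, Mdm4 -0.18 to 0.094, Nupr1 -0.65 to 0.86 and Trp53 -0.083 to 0.33. At 24h they were Bax -7.64 to 8.72, Ccng1 -9.96 to 2.86, Mdm2 -11.99 to 3.21 and Trp53 -4.61 to 2.41. Over 18h to 22h together they were Mybbp1a -0.29 to 0.50 and Nupr1 -0.034 to 0.67. For 22h against 18h they were Cdip1 -0.000588 to 0.63, Mdm2 -0.46 to 0.066 and Mybbp1a -0.24 to 0.24 in control, and Ccng1 -0.43 to 0.14 and Mdm4 -0.40 to 0.059 in KO. For 20h against 18h they were Cdkn1a -0.86 to 0.11 and Trp53 -0.17 to 0.20 in control, and Mybbp1a -3.14 to 5.91 and Trp53 -0.16 to 0.31 in KO. For the difference of the 18h to 22h change between genotypes they were Cdkn1a -0.42 to 0.91, Mdm4 -0.25 to 0.23 and Nupr1 -0.59 to 1.06.

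Over all genes, the counts by DESeq2 (higher and lower) were 34 and 64 at 18h, 11 and 21 at 20h, 3 and 1 at 22h, and 554 and 851 at 24h. They were 455 and 541 for 22h against 18h in control (195 and 105 by edgeR) and 827 and 981 in KO. For 20h against 18h they were 612 and 408 in control (99 and 44 by edgeR) and 818 and 721 in KO (183 and 56). For 22h against 20h they were 729 and 842 in control (294 and 264) and 1307 and 1420 in KO. With no filter they were 44 and 28 at 18h, 4 and 11 at 20h, 30 and 3 at 22h and 0 and 3 at 24h, and with 8 columns 346 and 477 at 24h. Leaving out control library 3 at 18h left 0 genes for 22h against 18h in control, and leaving out control library 2 at 24h gave 23 and 16 at 24h. RLE scaling gave 176 and 133 for 22h against 18h and 239 and 320 for 22h against 20h in control. Members near 0 counts, and 24h with 2 libraries a group, are where depth and number of libraries limit the values most.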
